A study of Homo sapiens with 24 samples.

Results

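The regions described here were stretches marked by trimethylation of histone H3 at lysine 27 (H3K27me3) in UMUC1 cells without added UTX. They kept part of that mark in cells given a mutant UTX and had none of it in cells given wild-type UTX. UMUC1 is a human bladder cancer cell line. The members were chosen by measured values: an H3K27me3 region of the empty-vector line at least 1000 bp wide was taken when it shared at least 1 base with an H3K27me3 region of the mutant line and no base with one of the wild-type line. On the 23 main chromosomes, 7658 of the 67717 empty-vector regions of that width met the rule, out of 231795 empty-vector regions of any width.

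H3K27me3 is placed by Polycomb repressive complex 2 and marks silent or lowly transcribed chromatin, often in broad domains. UTX, also called KDM6A, is a demethylase that removes this mark and a subunit of the complexes built around the methyltransferases MLL3 and MLL4, which place H3K4me1 at enhancers. H3K27ac occupies the same lysine as H3K27me3 and marks active enhancers and promoters, so the acetyl and trimethyl marks exclude each other on a single histone tail.

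The study compared UMUC1 cells carrying the pSIN-puro vector in 3 stable forms: empty (EV), with wild type UTX (WT), and with UTX mutated by H1146A and E1148A (HEAA). Chromatin immunoprecipitation with sequencing gave 1 list of enriched regions per line for each of H3K27me3, H3K4me1, UTX and MLL4, and a pair of lists per line (2 libraries) for H3K27ac. The labels do not state whether a line was 1 clone or a pool, or whether numbered libraries came from separate cultures. UTX peaks numbered 31 in EV, 2565 in WT and 2854 in HEAA. MLL4 peaks numbered 133, 898 and 1125 in the same order. The H3K27me3 lists of EV, WT and HEAA covered 239, 168 and 251 Mb, so the wild-type list was the shortest before any region was compared.

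The members were 11.3% of the empty-vector regions (95% Wilson interval 11.1 to 11.5, an interval over regions, which are not replicates). The reverse pattern, kept in WT and absent from HEAA, held 2181 regions or 3.22%, a ratio of 3.51 members to 1 reverse region. A further 52917 regions (78.1%) overlapped a region in both lines and 4961 (7.33%) in neither. These counts follow from the rule and from 1 list per line, so they carry no test, and the excess depended on how the lists were cut. With the HEAA list reduced to the bases covered by WT, its regions of highest confidence were kept. There were then 3642 members and 11154 reverse regions, and the ratio became 0.327, below 1 on all 23 chromosomes. With the HEAA list reduced to the number of WT regions, a choice made after seeing the data, the ratio was 1.70. With a −log10 q of at least 2 required in every list, it was 6.07. These choices did not treat the lines alike. Both cuts of the HEAA list can only lose members and add reverse regions, so the ratio could only fall, on every chromosome. The cut to equal covered bases kept 117771 of 247366 HEAA regions, none with a −log10 q below 1.86. All 199801 WT regions stayed, whatever their confidence. The minimum of 2 may have removed a larger part of the WT list, whose median −log10 q was below that of HEAA. The parts removed were not compared. The excess of members was thus present in the lists as deposited, with equal numbers of regions and with the −log10 q minimum. It was absent with equal covered bases, a cut that could only lower it. List length and line cannot be told apart with 1 list per line.

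**Figure D1:**
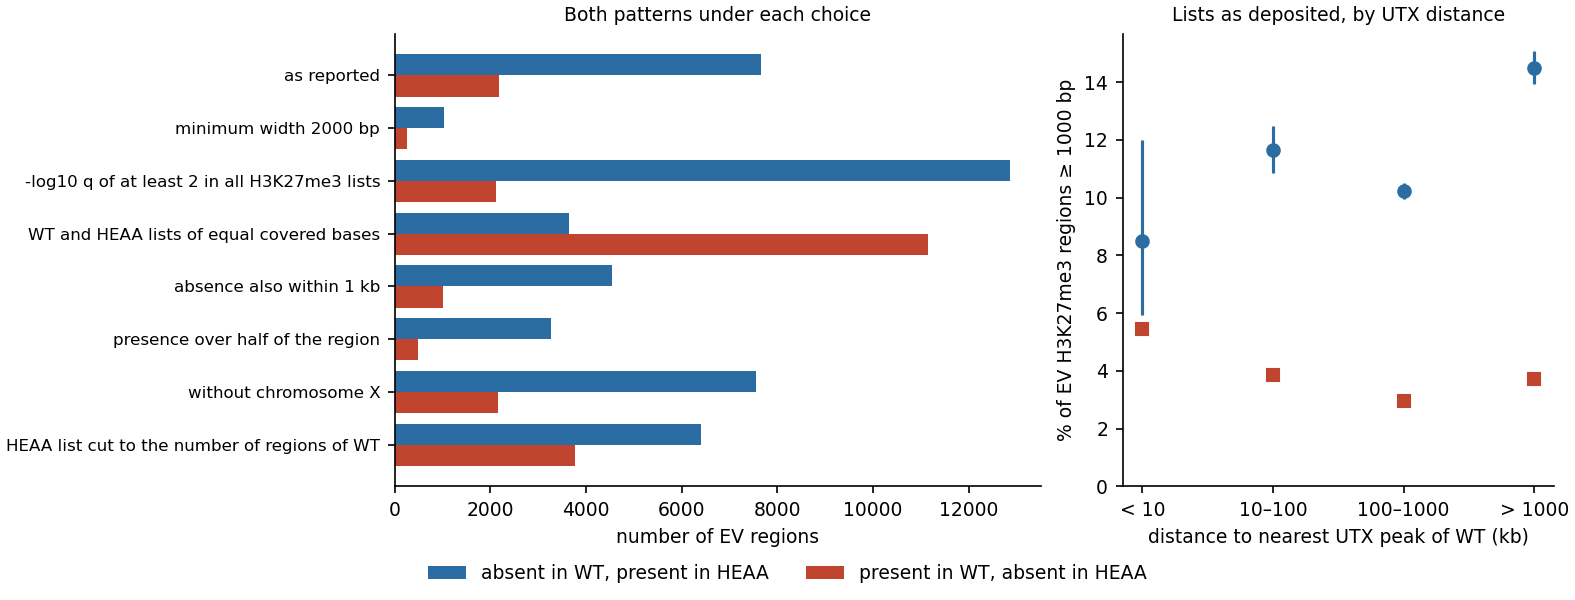
Left: number of empty-vector H3K27me3 regions absent in WT and present in HEAA (blue) or present in WT and absent in HEAA (red), under each choice of width, confidence, list length and overlap. Right: percentage of empty-vector regions of at least 1000 bp with each pattern by distance to the nearest UTX peak of the WT line, with 95% Wilson intervals on the blue points. Blue exceeds red at left except with lists of equal covered bases (3642 against 11154), and at right the blue points lie between 8.48% within 10 kb and 14.5% beyond 1000 kb.

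The members were narrow and weakly enriched among the regions of the empty-vector line. Their median width was 1333 bp (quartiles 1131 and 1676), against 1885 bp for regions present in both lines and 1288 bp for the reverse pattern. Their median fold enrichment, the value the authors' peak caller gave each region, was 2.50, and their median −log10 q was 1.96. Regions present in both lines had medians of 2.68 and 2.45, and reverse regions 2.48 and 1.92. In width and enrichment the members thus resembled the reverse regions more than the regions kept in both lines.

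Membership was lower at higher confidence and at greater width. With the empty-vector regions split into 10 equal groups by −log10 q, 21.6% of the lowest group were members and 1.70% of the highest. The reverse pattern went from 6.96% to 0.414% over the same groups, and the ratio stayed between 3.10 and 4.43. By width, members made up 17.9% of regions of 1000 to 1500 bp and 0.335% of those of 5000 bp or more. Regions under 1500 bp supplied 64.7% of all members. Of the 4482 regions of at least 5000 bp, 15 were members and 4456 overlapped a region in both lines. The fall with width is partly set by the rule. Absence means no shared base, and a wider region has more bases that can meet a WT region. From the narrowest to the widest group, the reverse pattern went from 5.42% to 0.0669% and regions absent from both lines from 12.9% to 0.178%.

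**Figure D2:**
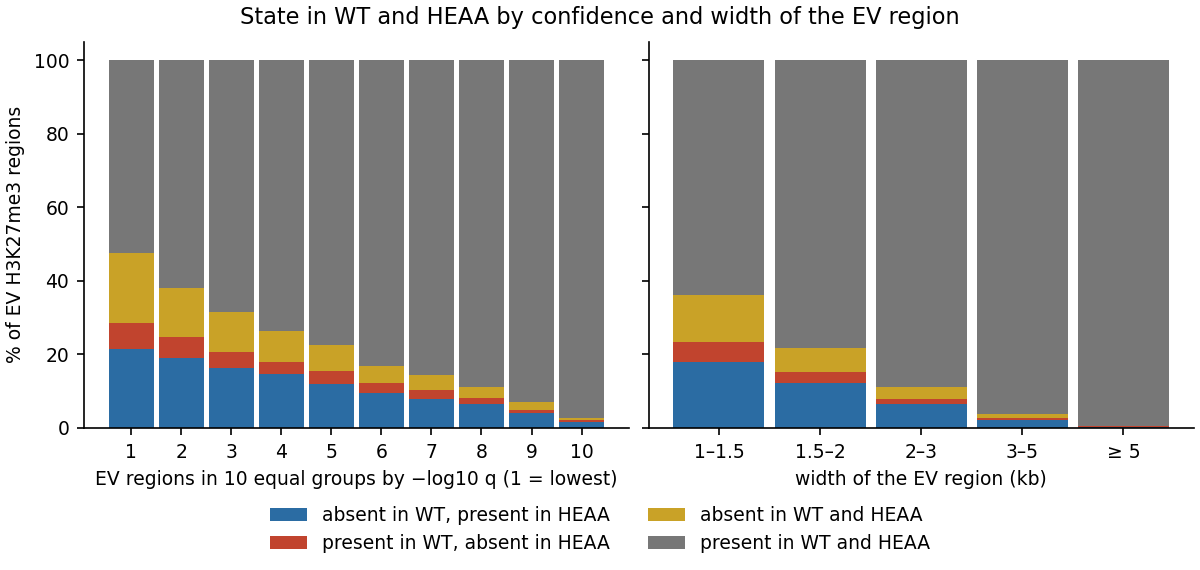
Percentage of empty-vector H3K27me3 regions of at least 1000 bp in each of 4 states, in 10 equal groups of −log10 q from lowest to highest (left) and by width in kb (right). The blue share, absent in WT and present in HEAA, falls from 21.6% to 1.70% across the groups and from 17.9% to 0.335% across the widths, and the gold and red shares fall beside it.

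Presence in HEAA was mostly partial. HEAA regions covered a median of 44.1% of a member's bases (quartiles 27.4 and 65.8). They covered at least 50% of 3258 members (42.5%) and all of 368 (4.81%), and less than 10% of 296. Reverse regions were covered by WT over a median of 30.7% of their bases. Absence from WT was often a matter of a short distance: the nearest WT region lay a median of 1436 bp from a member, within 1 kb of 3111 members (40.6%) and within 10 kb of 6571 (85.8%). More than 50 kb separated 262 members (3.42%) from any WT region. Reverse regions lay closer still to the nearest HEAA region, at a median of 868 bp. It was within 1 kb of 53.8% of them and within 10 kb of 91.6%, and 1.83% had none within 50 kb.

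The 3 narrowest members, each exactly 1000 bp wide, lay on chromosome 3, for example chr3:37853974-37854973 with a fold of 2.36 in EV and 2.28 in HEAA. The 3 regions just under the width limit were 999 bp wide and met the rest of the rule, for example chr1:170820372-170821370 with 2.64 in EV and 2.53 in HEAA. At the other edge of the rule, 4 members touched a WT region without sharing a base, such as chr3:30938503-30939818. The region chr3:149930026-149931280 shared 1 base with a WT region and was counted as present in both lines. Across all regions also present in HEAA, 489 shared 1 to 100 bases with WT.

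The H3K27me3 around the members was lower in WT too, and by about as much around the reverse regions. Within 10 kb on either side, H3K27me3 regions covered 25.0% of bases in EV, 13.5% in WT and 22.5% in HEAA around members. Around reverse regions the values were 25.6%, 14.7% and 20.2%. The WT coverage was thus 0.538 of EV around members and 0.572 around regions that WT had kept, compared with 0.800 around regions kept in both lines. Over 50 kb on either side, the ratio of WT to EV was 0.591 around members and 0.603 around reverse regions, and that of HEAA to EV was 0.910 and 0.844. These are the same lists the rule used and were not tested.

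**Figure D3:**
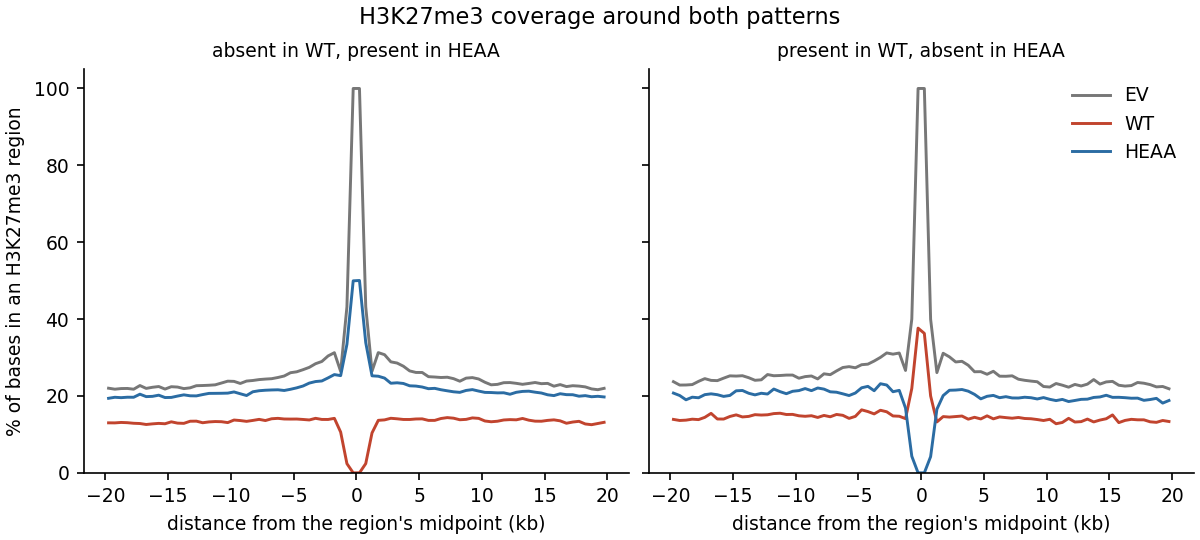
Percentage of bases inside an H3K27me3 region of EV (grey), WT (red) and HEAA (blue) against distance in kb from the region's midpoint, in steps of 0.5 kb, for members (left) and reverse regions (right). At the midpoint the lines are fixed by the rule at 100% for EV and 0% for the lacking line, and beyond 2 kb from it the red line is lowest in both panels, at 13.1% and 13.4% at 19.75 kb.

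The members were spread over every main chromosome. Their share of a chromosome's empty-vector regions ran from 6.95% on chromosome 20 to 17.1% on chromosome 6 and 17.3% on chromosome X. The intervals of chromosome 6 (15.7 to 18.6) and chromosome X (14.6 to 20.3) overlapped, and that of chromosome 20 (6.04 to 7.98) lay below both. The ratio of bases covered in WT to those covered in EV was 0.489 on chromosome X, 0.584 on chromosome 6 and 0.854 on chromosome 20. The order was not general: chromosome 10 had the highest ratio (0.977) with 9.90% members, and chromosome 18 a ratio of 0.555 with 11.7%. Chromosome X held 117 members, 1.53% of them (1.28 to 1.83), beside 1.00% of all empty-vector regions. At a minimum width of 2000 bp the members' share was 1.25% beside 0.699%. With a −log10 q of at least 2 in all lists the members' share was 0.925% beside 0.705%, and with lists of equal covered bases 1.18% beside 1.00%. The ratio of members to reverse regions was lowest on chromosome 18, at 1.46, and highest on chromosome 8, at 5.74.

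**Figure D4:**
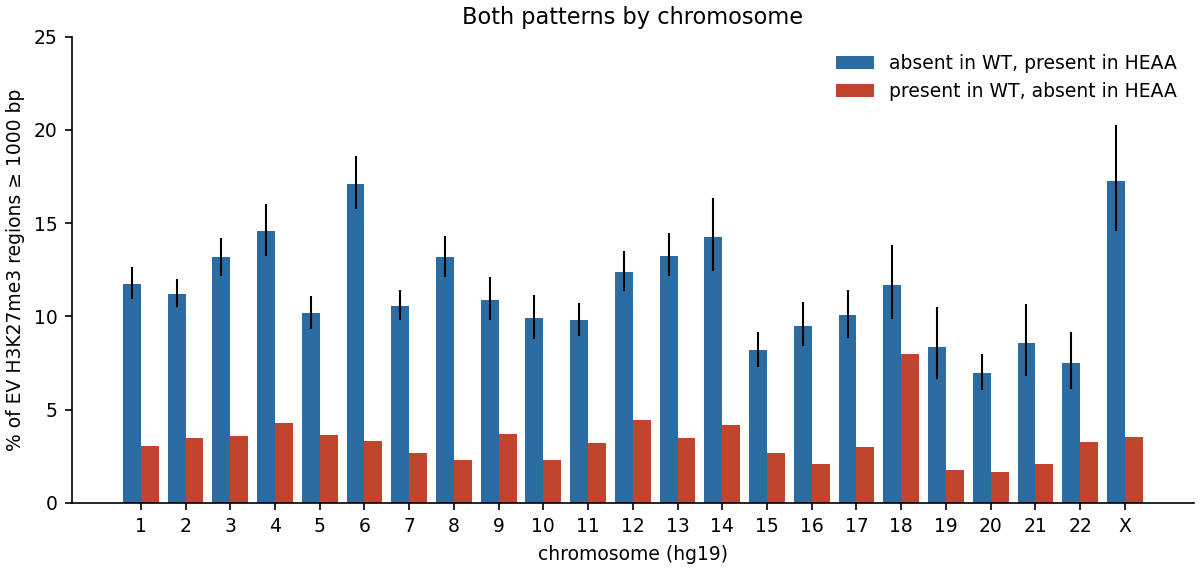
Percentage of each chromosome's empty-vector H3K27me3 regions of at least 1000 bp that were absent in WT and present in HEAA (blue, with 95% Wilson intervals) or present in WT and absent in HEAA (red). Blue bars run from 6.95% on chromosome 20 to 17.3% on chromosome X and exceed red bars on every chromosome, with the smallest gap on chromosome 18.

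Most members did not have another member as the neighbouring empty-vector region. The next member was a median of 46.1 kb away, and 21.6% had another within 10 kb. Counting consecutive empty-vector regions of at least 1000 bp, 5294 members stood alone, and runs of 2, 3, 4 and 5 members occurred 831, 167, 29 and 17 times. Among the fewer reverse regions, 1928 stood alone, and runs of 2 and 3 occurred 116 and 7 times. How many single members and runs the members' 11.3% share of these regions would give was not worked out. No clustering or spacing is read from these counts. Members were found in 2134 of the 2571 windows of 1 Mb that held an empty-vector region, and the 10 richest windows held 2.34% of them.

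The richest window was chr13:94000001-95000000, where 36 of 104 empty-vector regions were members and 1 was a reverse region. H3K27me3 regions covered 34.5% of that window in EV, 8.71% in WT and 21.0% in HEAA. H3K4me1 was low there in every line, at 3.33%, 1.99% and 2.28% of bases, and the window held no UTX peak of WT or HEAA and no MLL4 peak of any line. The next window, chr12:114000001-115000000, held 24 members among 98 regions, with H3K27me3 over 34.5%, 15.5% and 22.6% of its bases in EV, WT and HEAA. Windows on chromosomes 15 (47000001-48000000), 2 (59000001-60000000) and 7 (36000001-37000000) followed with 16, 15 and 15 members. Windows at chr8:13000001-14000000, chr8:116000001-117000000 and chr16:51000001-52000000 also held 15. In the chromosome 16 window, HEAA covered more than EV (28.9% against 21.8%) while WT covered 13.2%.

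Some members stood in longer stretches with no WT region at all. Stretches of at least 100 kb free of WT H3K27me3 numbered 909 among those holding a member and together held 1132 members (14.8%). By definition they can hold no reverse region and no region present in both lines. The share of all empty-vector regions in WT-free stretches was not counted, so the 14.8% has no background here. These stretches were picked after their values were seen. At chr6:51149116-51400780, which spans 252 kb, H3K27me3 regions covered 7.39% of bases in EV and 6.98% in HEAA, with 30 and 28 regions, and none in WT. Its 4 members had folds of 2.30 to 2.88 in EV and 2.09 to 2.78 in HEAA. H3K4me1 covered 2.75% of that stretch in EV, 3.19% in WT and 3.50% in HEAA. No UTX peak of WT or HEAA and no MLL4 peak lay in it. At chr11:35282572-35416441 the 6 members lay among 25 EV regions and 11 HEAA regions, and coverage was 18.9% in EV, 5.34% in HEAA and 0% in WT, so most of the mark was missing from HEAA as well.

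A stricter form of the pattern was drawn up after seeing the data. It asked for a −log10 q of at least 2 in EV and in the overlapping region, at least 50% of the EV region covered, and no region of the lacking line within 1 kb. It was met by 398 of the 7658 members (5.20%) and by 15 of the 2181 reverse regions. With lists of equal covered bases the same form gave 327 members and 391 reverse regions. That cut removes HEAA regions only, so it can lose members but not add any, and it can add reverse regions but not lose any. All 327 therefore had to be among the 398, and the 391 hold the 15 reverse regions found with the lists as deposited. Neither number is a check on the pattern. The 398 lay on all 23 chromosomes. The one farthest from any WT region was chr8:34280332-34282187, 1856 bp wide, with a fold of 2.40 in EV and 2.58 in HEAA, HEAA regions over 98.3% of it, and the nearest WT region 445 kb away. No H3K4me1 region of any line overlapped it, and the nearest UTX peak of WT was 3479 kb away.

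The 15 members with the best combined rank of enrichment in EV and HEAA had folds of 3.03 to 3.53 in EV and 2.81 to 3.32 in HEAA. The first in rank, chr9:139140877-139142767, had 3.47 in EV and 3.32 in HEAA, HEAA covered 14.6% of it, and a WT region lay 493 bp away. The second, chr1:208998323-208999887, had 3.12 and 3.09 and was wholly covered by HEAA, with a WT region 635 bp away. Of the 15, 7 had a WT region within 1 kb, 3 overlapped H3K4me1 in each line, and 1 had a UTX peak of WT within 100 kb. The 5 reverse regions ranked in the same way, such as chr2:36463727-36464774 with 3.09 in EV and 3.42 in WT, overlapped no H3K4me1 or H3K27ac region.

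The 10 widest members ran from 5265 to 6929 bp. The widest, chr3:138068011-138074939, had a fold of 2.62 in EV, and HEAA regions covered 4.33% of it. Across the 10, that coverage ran from 4.33% to 43.7% and none had a WT region within 1 kb. H3K4me1 overlapped 4 of them in EV, 5 in WT and 4 in HEAA, H3K27ac overlapped none in any library, and 4 had a UTX peak of WT within 100 kb.

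H3K27ac was not used to choose the members, and almost none of them carried it. In EV, 8 members (0.104%, background over all empty-vector regions of that width 0.0797%) overlapped an H3K27ac region of library 1 and 3 (0.0392%, background 0.124%) one of library 2. In WT the counts were 28 (0.366%, background 0.354%) and 3 (0.0392%, background 0.0857%). In HEAA they were 33 (0.431%, background 0.416%) and 5 (0.0653%, background 0.0812%). The number 1 libraries of WT and HEAA stood above every other library, and the number 2 libraries of both lay within the range of EV. The mean share was 0.0718% ± 0.0462 in EV, 0.202% ± 0.231 in WT and 0.248% ± 0.259 in HEAA (SD, n = 2 libraries each), with overlapping ranges. By two-sided exact permutation tests over libraries, WT differed from EV by 0.131 percentage points (p = 1.00), HEAA from EV by 0.176 (p = 0.667) and WT from HEAA by −0.0457 (p = 0.667). With 2 libraries per line the smallest p such a test can give is 0.333, so no difference could have passed 0.05. Among library 1 alone the differences were 0.261, 0.326 and −0.0653, and among library 2 alone 0, 0.0261 and −0.0261.

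The share of members with H3K27ac nearby was above the background in all 6 libraries. Within 5 kb, 406 members (5.30%, background 3.94%) had H3K27ac of EV library 1 and 339 (4.43%, background 3.22%) of EV library 2. For WT the counts were 630 (8.23%, background 5.79%) and 278 (3.63%, background 2.48%). For HEAA they were 693 (9.05%, background 6.73%) and 242 (3.16%, background 2.08%). WT and HEAA were above EV in the number 1 libraries and below it in the number 2 libraries, so the direction between lines rested on the library number. The H3K27ac lists covered 88.1, 96.0 and 110 Mb in the number 1 libraries of EV, WT and HEAA and 71.6, 55.3 and 48.3 Mb in the number 2 libraries, which runs in the same order. The part of list length in these shares was not tested. Reverse regions had 4.45% and 2.98% in EV, 7.66% and 2.75% in WT, and 9.81% and 2.25% in HEAA. Among regions of 1000 to 1500 bp, the share with H3K27ac of EV library 1 within 5 kb was 4.40% for members and 2.27% for regions kept in both lines. Regions absent from both lines stood higher than either pattern, at 8.63% and 6.51% in EV, 16.9% and 6.79% in WT, and 18.9% and 5.89% in HEAA.

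**Figure D5:**
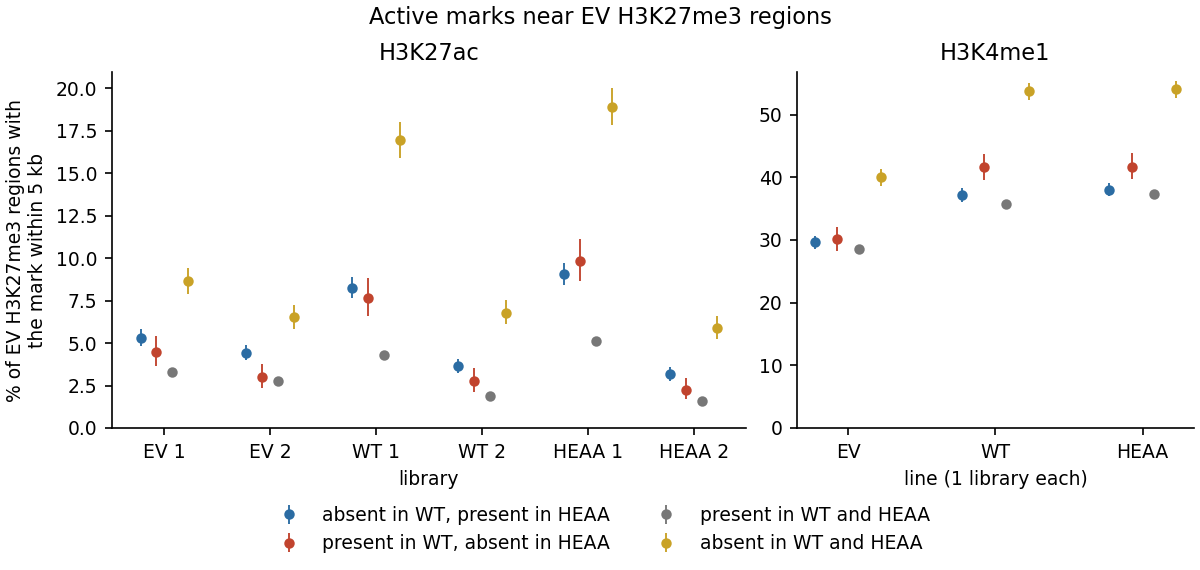
Percentage of empty-vector H3K27me3 regions of at least 1000 bp with an H3K27ac region (left, 6 libraries) or an H3K4me1 region (right, 1 library per line) within 5 kb, for the 4 states in WT and HEAA. Points are shares and bars 95% Wilson intervals over regions. Blue and red intervals, for members and the reverse pattern, are apart for H3K27ac of EV library 2 (4.43% against 2.98%), H3K4me1 of WT (37.1% against 41.7%) and H3K4me1 of HEAA (38.1% against 41.7%), and they overlap in the other 6 libraries, while gold points, absent in both lines, lie highest in every library.

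In all, 38 members overlapped H3K27ac in any library (0.496%, beside 0.607% of all empty-vector regions). Of these, 16 had it in WT as well as HEAA but not in EV, 8 in HEAA alone, 4 in WT alone and 1 in EV alone. These were 0.209%, 0.104%, 0.0522% and 0.0131% of members, beside 0.190%, 0.148%, 0.0930% and 0.0738% of all empty-vector regions. Members with H3K27ac in 3 or more libraries, a group picked after its values were seen, numbered 11, and all 11 also carried H3K4me1 in all 3 lines. Such regions were not counted over all empty-vector regions, so the 11 have no background here.

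A pair of those 11 were neighbours at the start of a WT-free stretch on chromosome 20 (19185028-19448099). The member chr20:19191354-19193106 had a fold of 4.27 and a −log10 q of 6.99 in EV, and a fold of 2.59 over 49.2% of its bases in HEAA. It overlapped H3K27ac in WT library 1 and HEAA libraries 1 and 2, while no EV library had a region there. Its neighbour chr20:19193494-19196582 had folds of 3.33 and 2.57 and carried H3K27ac in all 4 libraries of WT and HEAA and in none of EV. Over the whole stretch H3K27me3 covered 18.7% of bases in EV, 2.55% in HEAA and none in WT, with 50 regions in EV and 10 in HEAA. H3K4me1 covered 11.7% of its bases in EV, 21.7% in WT and 20.2% in HEAA. H3K27ac covered 3.69% in EV, 11.5% in WT and 10.3% in HEAA in the number 1 libraries, and 3.94%, 3.43% and 3.27% in the number 2 libraries. Most of the H3K27me3 of this stretch in EV was thus missing from both other lines, and in the 6 members HEAA still had some. The difference in H3K27ac coverage between lines appeared in the number 1 libraries and not in the number 2 libraries.

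H3K4me1 overlapped a smaller share of members than of empty-vector regions in general in every line. It overlapped 373 members in EV (4.87%, background 6.83%), 549 in WT (7.17%, background 9.31%) and 631 in HEAA (8.24%, background 10.1%). The share was 2.30 percentage points higher in WT than in EV (95% Newcombe interval 1.55 to 3.05) and 3.37 points higher in HEAA than in EV (2.59 to 4.15), and in WT it was −1.07 points from HEAA (−1.92 to −0.226). These intervals cover counting over regions only and treat the shares, which come from the same members, as independent. With 1 library per line there was no test between lines. Over all empty-vector regions the same 3 differences were 2.48, 3.26 and −0.786 points, and among reverse regions 3.58, 3.94 and −0.367. With H3K4me1 lists cut to equal length, the differences of WT and HEAA from EV among members shrank to 0.953 and 1.12 points. Members were also narrower than regions kept in both lines. Among regions of 1000 to 1500 bp, H3K4me1 overlapped 3.27% of members in EV, 5.29% in WT and 5.75% in HEAA. Regions kept in both lines had 3.00%, 3.99% and 4.41% in the same order. Reverse regions had 4.13%, 7.26% and 7.06%, and regions absent from both lines 5.62%, 10.3% and 10.8%. The part of width in these shares was not tested. No H3K4me1 region of any line overlapped 6796 members (88.7%). Of the rest, 204 had it in WT as well as HEAA but not in EV, 202 in all 3 lines, 169 in HEAA alone, 116 in WT alone and 88 in EV alone. Over all empty-vector regions, 86.2% had none, 2.71% had it in WT and HEAA alone, 4.18% in all 3 lines, 2.35% in HEAA alone and 1.87% in WT alone. The same shares of members were 2.66%, 2.64%, 2.21% and 1.51%.

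Near the members, the share with H3K4me1 was within 1 percentage point of the background in every line. Within 5 kb it was found for 2269 members in EV (29.6%, background 29.5%), 2844 in WT (37.1%, background 37.4%) and 2914 in HEAA (38.1%, background 38.8%). In WT the share was −0.914 points from HEAA (−2.45 to 0.620). That interval covers counting over regions only, and with 1 library per line there was no test between lines.

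UTX peaks were far from most members. The nearest UTX peak of WT was a median of 531 kb away (quartiles 241 and 1119), against 490 kb for reverse regions, 477 kb for regions kept in both lines and 432 kb for regions absent from both. Within 100 kb of such a peak lay 723 members (9.44%, interval 8.81 to 10.1, background 9.29%), a share near that of all empty-vector regions. The shares were 11.4% for reverse regions, 8.70% for regions kept in both lines and 14.5% for regions absent from both. With UTX peaks of HEAA, 770 members (10.1%, background 9.99%) lay within 100 kb. Among regions of 1000 to 1500 bp the share within 100 kb was 8.56% for members and 7.89% for regions kept in both lines. Within 10 kb of a UTX peak of WT lay 28 members (0.366%, background 0.487%), and within 1 kb 1 member (0.0131%, background 0.0620%). None overlapped one. Such closeness was thus rare among all empty-vector regions as well. At a minimum width of 2000 bp the share within 100 kb was 14.0% of members, beside 9.94% of all empty-vector regions of that width. With lists of equal covered bases it was 8.62%, beside 9.29%.

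MLL4 peaks were farther still. Within 100 kb of an MLL4 peak lay 296 members for WT (3.87%, background 3.36%) and 352 for HEAA (4.60%, background 4.31%). The MLL4 lists held no peak on chromosomes 20 to 22, so 7317 of the 7658 members had a distance to one.

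Members and reverse regions were also counted by distance to UTX peaks. Members were 8.48% of the 330 empty-vector regions within 10 kb of a UTX peak of WT, 11.7% of those at 10 to 100 kb, 10.2% at 100 to 1000 kb and 14.5% beyond. The ratio of members to reverse regions was 1.56, 3.02, 3.46 and 3.89 in the same order. Of the regions with either pattern, members were 60.9% within 10 kb (interval 46.5 to 73.6) and 79.6% beyond 1000 kb (78.0 to 81.0). The interval within 10 kb overlapped that beyond 1000 kb when UTX peaks of HEAA were used (53.8 to 79.6 against 77.5 to 80.6), when peaks found in both lines were used (45.5 to 78.1 against 77.4 to 79.9), and for regions of 1500 bp or wider with WT peaks (51.8 to 86.8 against 77.5 to 82.8). With lists of equal covered bases the shares were 20.7%, 23.8%, 23.9% and 26.6% in the same order of distance, and the first interval (12.3 to 32.8) again held the last (25.3 to 28.0).

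The 5 members nearest to a UTX peak of WT lay 0.369 to 2.29 kb from it. The nearest was chr15:70394597-70397087, with folds of 2.70 in EV and 2.55 in HEAA and HEAA regions over 60.7% of it. It overlapped H3K4me1 in EV and HEAA and not in WT, and a UTX peak of HEAA lay 0.518 kb away. The third, chr9:88355147-88356358, lay 1.76 kb from a UTX peak of WT and 1.79 kb from one of HEAA, and overlapped H3K4me1 in every line and H3K27ac in EV library 2, WT library 1 and both HEAA libraries. All 5 had H3K27ac of some library within 5 kb of the region.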

How the data were processed

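Region lists from 18 ChIP-seq samples of 3 UMUC1 lines were used, and 6 input samples were not analysed here. Per the submitters' processing notes, MACS2 and the builds hg19 and GRCh37 were used, while the sources used here do not name an aligner, versions, read filters or pooling. The narrow or broad peak format was read from the deposited column layout. The fold enrichment (a ratio), −log10 p and −log10 q, and score of each region are values the authors deposited. The lists hold no read counts, so sequencing depth is unknown, which limits how far absence from a list can be read.

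From these, regions on the 23 main chromosomes were compared with an overlap of at least 1 bp, and 104 EV regions on other scaffolds were left out. Positions are 1-based. Distances run from edge to edge. Intervals are 95% Wilson or Newcombe intervals over regions, and exact permutation tests over libraries compared the H3K27ac shares. Python 3.11.15, NumPy 2.4.6, pandas 2.3.3 and SciPy 1.17.1 were used, and code for overlaps was tested on simulated data, in which all 1655 planted regions were given their class. The regions named were the 15 members ranked highest by fold in EV and HEAA, the 10 widest, the 5 nearest to a UTX peak of WT, the 5 windows of 1 Mb with most members, 5 reverse regions ranked by fold, and those nearest to the rule's limits. Other windows, stretches and members were picked after their values were seen, as stated beside them or because they tied. The members, lists and tests were chosen with earlier results of these data known. An hg19 annotation or sequence was not used here, so no gene is named, planned gene lists were not run and no sequence is printed.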

Additional observations from a re-analysis of the deposited data

How the results depend on the processing

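Of 54 alternative values, 30 were counted as the same, 19 moved and 5 turned direction. Member counts and their ratio were counted as the same within a factor of 1.5. H3K27ac differences were so counted whenever they kept their sign, and the other shares and differences when they lay within the interval as reported. The member count of 7658 was 1040 at a minimum width of 2000 bp, 12870 with a −log10 q of at least 2 in all lists, 3642 with lists of equal covered bases, 4547 with absence also within 1 kb and 3258 with presence over 50% of the region. The ratio of 3.51 turned to 0.327 with equal covered bases, and was 6.07 with the −log10 q minimum, 6.75 with presence over 50%, and 1.70 with equal numbers of regions, the last chosen after seeing the data. The cause was not tested, except that cutting the HEAA list removes regions by construction and so can only lower the ratio. The cut to equal covered bases removed the HEAA regions of lowest confidence and no WT region, so it compared the lines at unlike confidence. The chromosome X share of 1.53% was 1.25% at 2000 bp (all EV regions 0.699%), 0.925% with the −log10 q minimum (0.705%) and 1.18% with equal covered bases (1.00%). The share of 9.44% within 100 kb of a UTX peak of WT was 14.0% at 2000 bp (all EV regions 9.94%), 8.62% with equal covered bases (9.29%) and 6.12% with peaks found in both lines (6.20%).

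The H3K4me1 differences of WT and HEAA from EV were 5.00 and 6.73 points at 2000 bp and 0.953 and 1.12 with H3K4me1 lists of equal length, and WT minus EV was 1.54 with equal covered bases. Leaving out 1 library at a time, the H3K27ac differences ran from −0.0326 to 0.294 points for WT minus EV, −0.00653 to 0.359 for HEAA minus EV, and −0.229 to 0.137 for WT minus HEAA. WT minus EV turned negative without WT library 1, HEAA minus EV without HEAA library 1, and WT minus HEAA turned positive without WT library 2 or HEAA library 1. With the library number as a replicate block, the paired values were 0.131, 0.176 and −0.0457 points, with exact sign-flip p of 1.00, 0.50 and 0.50. With 2 numbers the smallest p that test can give is 0.50, so it could change no call. The labels do not say what a number marks, and with 2 numbers per line the correlations of same-numbered deviations were 0.375 (EV and WT), 0.353 (EV and HEAA) and 0.795 (WT and HEAA).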
